A study of Arabidopsis thaliana with 8 samples.

Results

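The response to brassinolide (BL), an active brassinosteroid (BR), was measured in etiolated seedlings of iaa3, and the functions that still responded there were described across all expressed loci. The comparison took the 2 iaa3 BL libraries against the 2 iaa3 mock libraries, 4 of the 8 RNA-Seq libraries of the series, chosen by genotype and treatment and by no measured value. Of 33518 loci counted, 20415 had enough reads to be tested. The mutant, iaa3/shy2-2, is in the Col-0 background and carries a gain-of-function allele that stabilises the IAA3 protein. The other 4 libraries were wild type (Col-0), 2 with BL and 2 with mock. All seedlings, controls included, were raised for 5 days in darkness on medium holding 2 µM propiconazole (PPZ), a blocker of BR synthesis, and then received 100 nM BL or mock for 4 hr. Seedlings hold many cell types, so fewer cells of a type and less RNA per cell cannot be told apart.

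BRs bind the receptor kinase BRI1 at the cell surface, and the signal reaches the nucleus through the transcription factors BZR1 and BES1, which promote cell elongation and shut down the genes that make BR. Auxin acts by destroying Aux/IAA proteins such as IAA3, which otherwise hold auxin response factors (ARFs) inactive. In the hypocotyl both hormones drive elongation, and a stabilised IAA3 keeps the auxin branch shut whatever the auxin level.

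Levels are given in CPM, the reads of a gene scaled to a common library size with TMM factors, for replicates 1 and 2 of each group in that order. Genes were called where the groups differed by 1.5-fold or more and the unadjusted p-value lay under 0.01. Log2 fold changes are BL over mock, with their standard error (SE), and adjusted p-values were computed over all tested genes with edgeR and the Benjamini-Hochberg method. Total counts ranged from 18107519 to 23183988 per library, and a count of 3, the limit that a count of 0 allows, stood for 0.120 to 0.172 CPM. IAA3 mRNA itself was not called with BL in iaa3, at 11.4 and 12.9 CPM in iaa3 BL, against 13.7 and 11.1 CPM in iaa3 mock, and the mutation, which acts on the protein, is not visible in read counts. Libraries of 1 group differed beyond sampling noise, as measured by chi-square divided by its degrees of freedom. This was 5.71 for iaa3 BL, 4.56 for iaa3 mock, 4.00 for wild type BL and 12.5 for wild type mock. The spread of wild type mock was the widest, and every wild type response and interaction rests on it. It also enters the p-values of the iaa3 response, since all 8 libraries shared 1 estimate of the spread. Nothing in the labels says that replicates came from separate cultures, so p-values measure the spread between these libraries, which may be technical. Genes of heat shock and hypoxia stood far higher in both iaa3 BL libraries than in the other 6, and their values are given below.

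The genes of BR synthesis fell with BL in iaa3. Of the 7 tested members, 6 were called lower and none higher, at a median log2 fold change of −2.80, beside 0.01 over all tested genes. This median is the value of the weakly expressed BR6OX1. It was −2.50 where 10 counts were required in every library. Across all genes, 3.46% were called lower and 4.69% higher with BL in iaa3. BR6OX2, the oxidase that makes brassinolide from castasterone, had 3.90 and 5.18 CPM in iaa3 BL, against 357 and 323 CPM in iaa3 mock. DWF4, the rate-limiting hydroxylase of the pathway, had 4.94 and 4.93 CPM in iaa3 BL, against 198 and 161 CPM in iaa3 mock. For both genes the BL libraries lay far below the mock libraries, with log2 fold changes of −6.21 (SE 0.12) and −5.18 (SE 0.13), and BR6OX2 had the largest fitted fall of all tested genes. CPD, the C-3 oxidase, had 174 and 155 CPM in iaa3 BL, against 631 and 601 CPM in iaa3 mock, and its log2 fold change was −1.90 (SE 0.08). CYP90D1 and ROT3, a pair of closely related hydroxylases of the same cytochrome family, fell, with log2 fold changes of −3.10 (SE 0.14) and −1.43 (SE 0.09). The weakly expressed BR6OX1 had 0.287 and 0.249 CPM in iaa3 BL, against 2.01 and 1.77 CPM in iaa3 mock and changed by −2.80 (SE 0.32). DET2, the steroid reductase, was not called, at 13.7 and 13.7 CPM in iaa3 BL, against 17.1 and 19.3 CPM in iaa3 mock and a log2 fold change of −0.41 (SE 0.09) with an adjusted p of 0.0114 (edgeR quasi-likelihood, Benjamini-Hochberg). For the 6 called genes the adjusted p was at most 0.000175 by the same test.

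In wild type the same 6 genes were called lower, with a list median of −4.06. The list medians of the genotypes were not compared by a test. Whether the genotypes differed in response was tested with an interaction term, called at an adjusted p under 0.05. It was called for CYP90D1 alone among the 7, whose fall was smaller in iaa3 by 1.57 on the log2 scale (adjusted p = 0.00203, edgeR quasi-likelihood, Benjamini-Hochberg). CYP90D1 reached 0.582 and 1.03 CPM in wild type BL, against 20.7 and 20.6 CPM in wild type mock. By the fold changes, a larger share of its mock level was left with BL in iaa3 than in wild type. For DWF4 the 95% interval of the difference ran over −0.72 to 0.31 on the log2 scale, and for BR6OX2 over −0.11 to 0.85, so no difference was called for either, and differences up to these bounds remain possible.

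**Figure D1:**
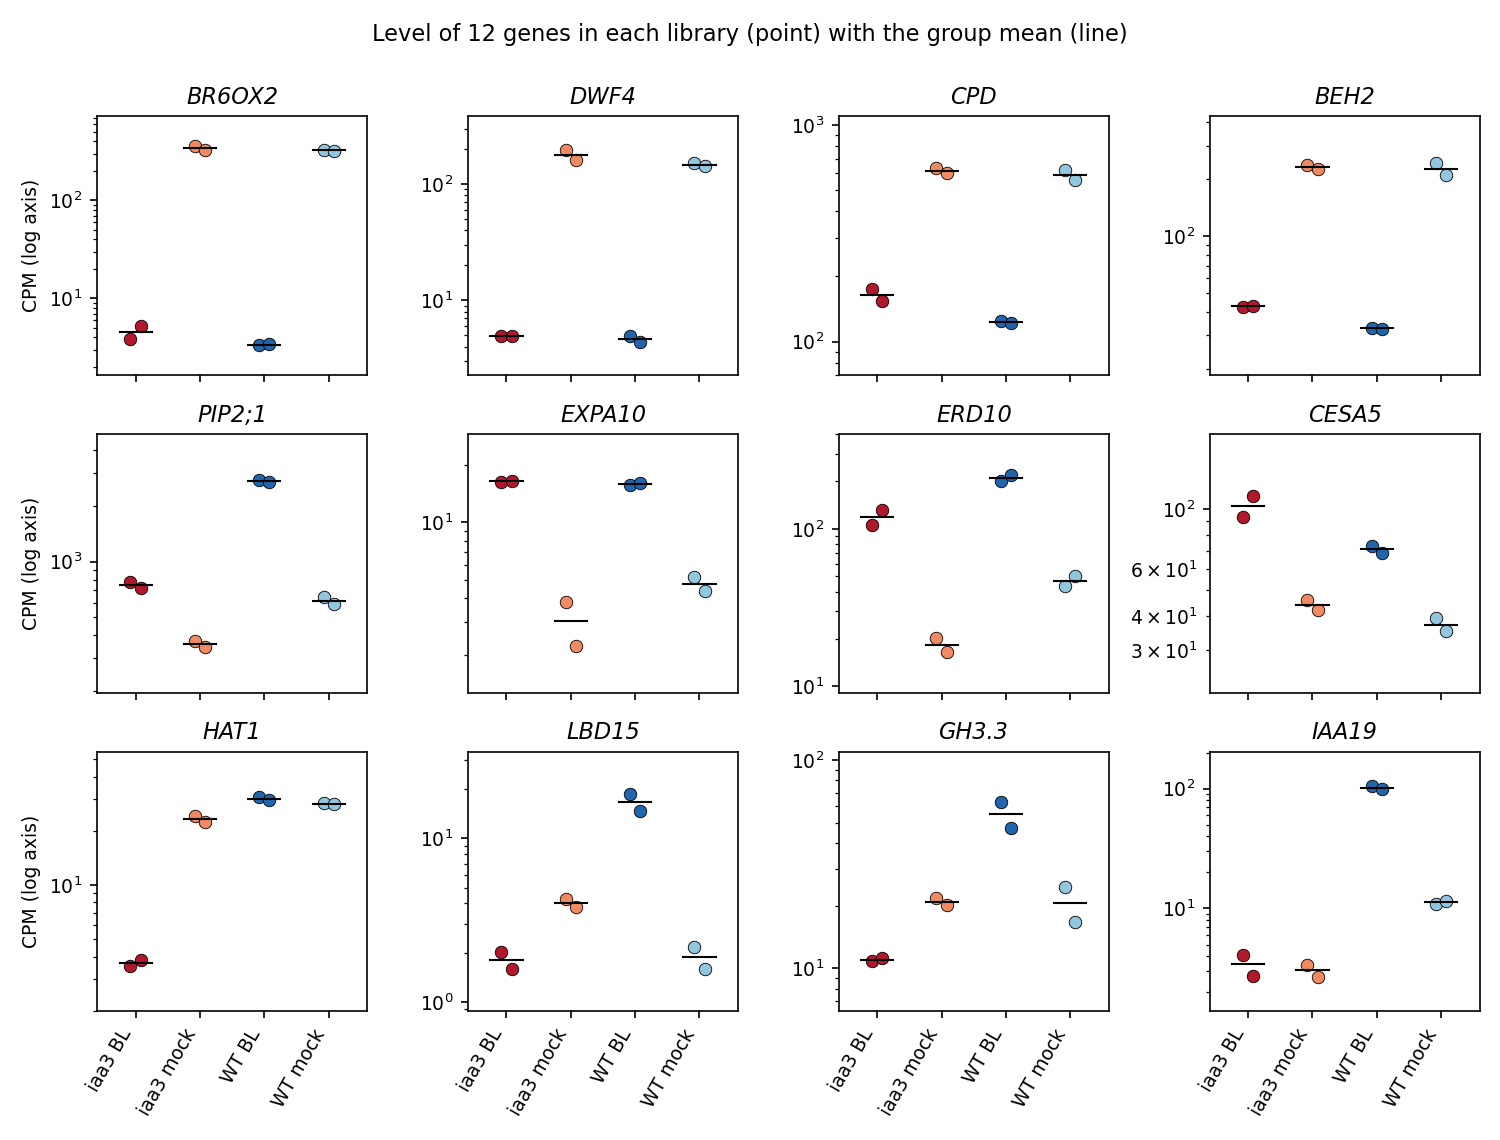
Level of 12 genes in each library (points, CPM on a log axis) with the group mean (line), for iaa3 BL, iaa3 mock, wild type (WT) BL and WT mock. BR6OX2, DWF4, CPD and BEH2 are low with BL in both genotypes. PIP2;1, EXPA10, ERD10 and CESA5 are high with BL in both. HAT1, LBD15 and GH3.3 are lower with BL in iaa3 but not in wild type, and IAA19 differs with BL in wild type but not in iaa3.

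Among BR signalling genes, 7 of 27 were called lower and 1 higher in iaa3, and the median was −0.03. BEH2, a close homolog of BZR1, had 42.4 and 42.8 CPM in iaa3 BL, against 237 and 226 CPM in iaa3 mock, with no overlap between the groups and a log2 fold change of −2.44 (SE 0.08). BRL3, a receptor of the BRI1 family, changed by −1.67 (SE 0.11), and MYBL2, a repressor that works with BES1, by −0.97 (SE 0.07). BSL1, a phosphatase that acts ahead of BIN2, was the member called higher, at 0.85 (SE 0.11). BZR1 mRNA was not called, at 35.6 and 38.3 CPM in iaa3 BL, against 39.7 and 35.9 CPM in iaa3 mock. The adjusted p of BEH2, BRL3 and MYBL2 was at most 7.00e-06 (edgeR quasi-likelihood, Benjamini-Hochberg). Of the 7 members lower in iaa3, 5 were also called lower in wild type.

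Sterol synthesis, which feeds the BR pathway, moved both ways, with 2 of 20 members higher, 2 lower and a median of −0.01. The C-4 demethylation enzymes SMO2-2 and SMO2-1 changed by −1.40 (SE 0.11) and −0.87 (SE 0.10). SQE3, a squalene epoxidase, changed by 1.07 (SE 0.10), and CYP51G1, the C-14 demethylase, by 0.79 (SE 0.11). Enzymes that inactivate BR gave 1 of 6 higher and 1 lower, with 2 higher without iaa3 mock replicate 2 or without iaa3 BL replicate 1. The glucosyltransferase UGT73C5 was the higher one at 0.96 (SE 0.12), and the acyltransferase PIZ the lower one at −0.96 (SE 0.20). The adjusted p over BSL1 and these 6 genes was at most 0.00696 (edgeR quasi-likelihood, Benjamini-Hochberg).

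The promoter windows of BEH2, CKX5, ACS11 and CPD are shown because all of these genes fell with BL in both genotypes, and the first 3 windows hold the BR response element, a sequence that BZR1 binds (CGTGTG or CGTGCG). Each is the stretch of 250 bases before the RefSeq annotated start of the gene, 5′ to 3′ on its own strand, from the TAIR10.1 assembly. Capitals mark matches, on either strand, to the BR response element, the G-box (CACGTG), the HUD element (CACATG), the auxin response element (TGTCTC), the evening element (AAAATATCT) or the heat shock element (GAANNTTC). The windows lie at chr4:17334356-17334605 (minus strand) for BEH2, at chr1:28318376-28318625 (minus strand) for the cytokinin oxidase CKX5, at chr4:4886712-4886961 (plus strand) for the ACC synthase ACS11 and at chr5:1706949-1707198 (minus strand) for CPD.
BEH2: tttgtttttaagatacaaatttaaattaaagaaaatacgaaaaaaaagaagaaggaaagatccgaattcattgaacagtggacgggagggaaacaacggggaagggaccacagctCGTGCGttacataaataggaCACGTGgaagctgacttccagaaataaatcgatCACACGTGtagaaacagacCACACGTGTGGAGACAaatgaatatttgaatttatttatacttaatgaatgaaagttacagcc
CKX5: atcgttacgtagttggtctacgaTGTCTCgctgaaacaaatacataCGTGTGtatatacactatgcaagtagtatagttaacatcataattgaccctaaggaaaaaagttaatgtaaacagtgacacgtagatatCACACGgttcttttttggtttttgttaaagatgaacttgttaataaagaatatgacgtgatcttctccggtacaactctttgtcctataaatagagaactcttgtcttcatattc
ACS11: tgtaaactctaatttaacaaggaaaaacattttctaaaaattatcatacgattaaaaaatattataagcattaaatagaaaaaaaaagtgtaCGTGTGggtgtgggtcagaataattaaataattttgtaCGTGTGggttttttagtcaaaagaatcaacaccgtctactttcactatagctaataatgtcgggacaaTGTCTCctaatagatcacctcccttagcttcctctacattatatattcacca
CPD: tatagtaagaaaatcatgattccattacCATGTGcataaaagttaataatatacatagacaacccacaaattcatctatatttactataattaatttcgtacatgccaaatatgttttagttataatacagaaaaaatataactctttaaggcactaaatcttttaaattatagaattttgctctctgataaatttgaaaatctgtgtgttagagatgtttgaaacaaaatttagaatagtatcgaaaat
The BEH2 window holds 8 matches, in which G-boxes and BR response elements share letters (a run of CACACGTG counts for both). CKX5 and ACS11 each hold 2 BR response elements and 1 auxin response element, and CPD holds 1 HUD element and no BR response element. A match is a description of these letters, and its absence says only that the letters are not in this window.

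Read over all genes, the BR response element was found in 93 of 706 windows of genes called lower in iaa3, or 13.2%, beside 7.0% of all 20280 windows of tested genes. Among genes called higher in iaa3 it was found in 7.11%. The HUD element, which BZR1 and PIF4 can bind, was in 11.1% of all windows. It was in 15.0% of windows of genes called higher in iaa3 and in 22.2% of those called higher in both genotypes. Its share was 13.0% for genes called lower in iaa3 and 13.7% for those called lower in both. Among genes higher in wild type with a lower response in iaa3 and no call there, it was 15.7%. The G-box was in 9.49% of lower, 8.88% of higher and 7.36% of all windows, the auxin response element in 11.5%, 11.5% and 10.6%, and the evening element in 2.55%, 3.03% and 2.42%. These shares were not tested, since genes are not independent replicates.

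In all, BL raised 958 genes and lowered 706 in iaa3 at these thresholds. The BL and mock libraries did not overlap for any of these genes. With 2 libraries per group the thresholds themselves favour this, so it adds no support to the calls. Of the 958 and 706 genes, 939 and 698 also had an adjusted p under 0.05 (edgeR quasi-likelihood, Benjamini-Hochberg). A 2-fold difference was passed by 476 of the higher and 299 of the lower genes. Without the loci of heat, hypoxia and anoxia responses, a set chosen after seeing the data, 910 and 705 were left. In wild type 1726 genes were called higher and 1199 lower, 8.45% and 5.87% of those tested, and with library size alone the balance turned round, to 1396 higher and 1678 lower. The genotypes share no library in these contrasts. Of the 706 genes lower in iaa3, 351 (49.7%) were also lower in wild type, which is 29.3% of the wild type genes. Of the 958 higher in iaa3, 329 (34.3%) were also higher in wild type, or 19.1% of the wild type genes. Both shares of the iaa3 genes lay above the share of all tested genes called in wild type.

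The difference in response between the genotypes was called for 1558 genes with the higher response in iaa3 (7.63% of those tested) and 2031 with the lower response in iaa3 (9.95%). For 505 of the 958 genes higher in iaa3 and 483 of the 706 lower no such difference was called. Among the higher genes, 359 responded more strongly in iaa3 and 94 less strongly than in wild type. The lower genes held 178 that fell further in iaa3 and 45 that fell less far. Both sets were chosen by their response in the same iaa3 libraries, which favours a stronger response in iaa3. The 2 splits therefore do not compare the genotypes. Of the 958, 44 fell in wild type, beside 5.87% of all tested genes. Of the 706, 14 rose there, beside 8.45% of all tested genes. Both counts lie below the share over all genes. The split of interaction calls depended on scaling, since library size alone gave 2156 higher and 1681 lower. It also depended on single libraries. The higher responses numbered 760 without iaa3 mock replicate 2, 963 without wild type BL replicate 1 and 855 without wild type BL replicate 2, and the lower ones 1268 without iaa3 mock replicate 2.

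**Figure D2:**
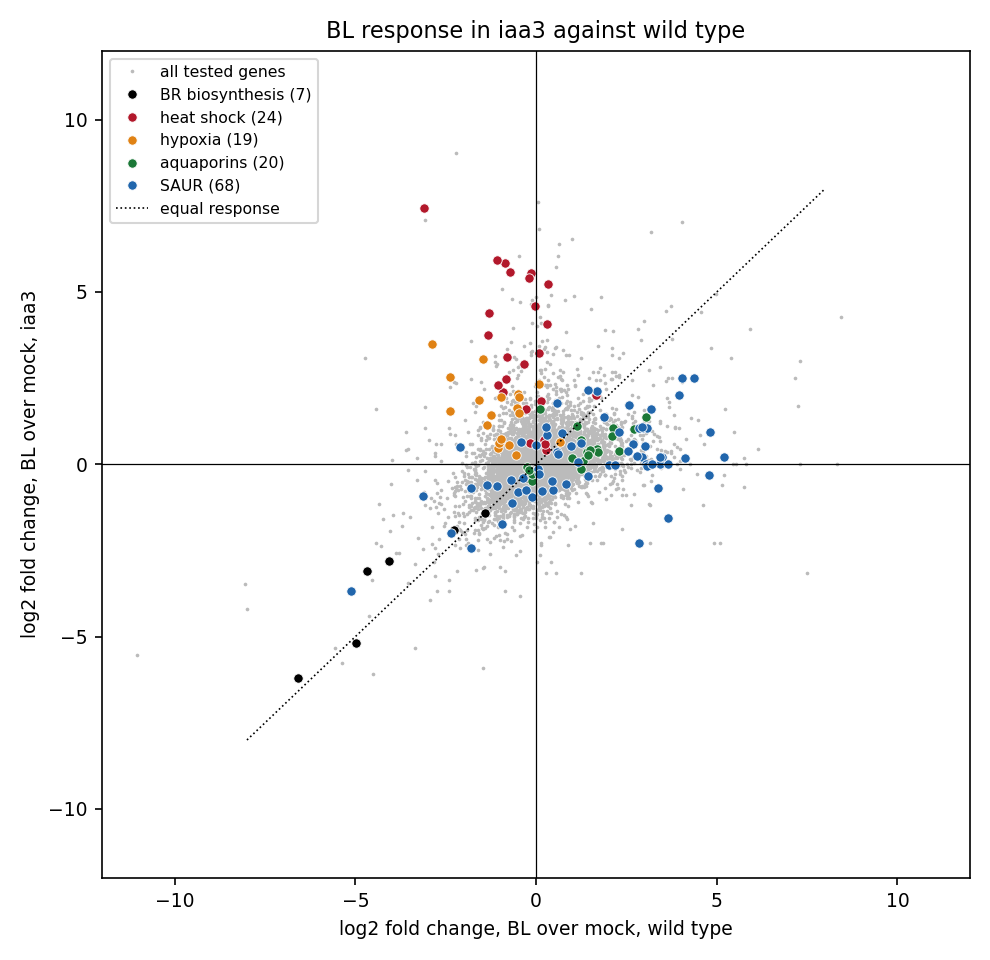
Log2 fold change with BL in iaa3 (vertical) against that in wild type (horizontal) for the 20415 tested genes (grey), with 5 lists in colour and the dotted line of equal response. BR biosynthesis genes lie near the line at the lower left, most aquaporin genes lie below the line, and most heat shock and hypoxia genes lie above it.

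Some of the strongest responses belonged to no list. AT5G01740, annotated as a protein with a nuclear transport factor domain, had 4.36 and 3.14 CPM in iaa3 BL, against 67.2 and 70.1 CPM in iaa3 mock. It also had 0.179 and 0.357 CPM in wild type BL, against 67.5 and 73.4 CPM in wild type mock, and its log2 fold change was −4.21 in iaa3 and −8.01 in wild type. The wild type BL values lay close to the floor of 0.134 CPM, so the size of its wild type fall and of its interaction is uncertain. AT5G66080, a protein phosphatase of the 2C family, changed by −3.37 (SE 0.12), AT3G51400, of unknown function, by −2.58 (SE 0.11), and AT5G22580, a stress responsive barrel protein, by −2.36 (SE 0.19). Each of these 4 genes fell less far in iaa3 than in wild type, with interactions of 3.80, 1.17, 1.22 and 1.94. MYB55, a MYB transcription factor, and WAT1, a tonoplast auxin exporter, were named after their values were seen. MYB55 had 0.976 and 1.05 CPM in iaa3 BL, against 40.8 and 40.6 CPM in iaa3 mock, and WAT1 had 14.9 and 14.0 CPM in iaa3 BL, against 56.1 and 56.5 CPM in iaa3 mock. Their log2 fold changes in iaa3, −5.32 (SE 0.11) and −1.97 (SE 0.09), lay beside −5.57 and −2.05 in wild type, and the interaction was not called. The adjusted p over these 6 falls was at most 1.57e-05 (edgeR quasi-likelihood, Benjamini-Hochberg).

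Among rises shared by both genotypes, the dehydrin ERD10 and the stress-induced F-box gene FBS1 were likewise named after their values were seen. ERD10 had 106 and 131 CPM in iaa3 BL, against 20.3 and 16.5 CPM in iaa3 mock, with 202 and 219.7 CPM in wild type BL, against 43.3 and 49.9 CPM in wild type mock, and its 2 log2 fold changes were 2.69 and 2.18. FBS1 had 34.7 and 50.1 CPM in iaa3 BL, against 7.64 and 8.76 CPM in iaa3 mock, a log2 fold change of 2.37 (SE 0.18). BPS3, a homolog of the root-derived signal gene BYPASS1, was chosen in the same way as a rise of iaa3 that wild type lacked. It had 35.8 and 36.5 CPM in iaa3 BL, against 8.58 and 8.35 CPM in iaa3 mock, and 4.08 and 4.87 CPM in wild type BL, against 6.31 and 5.10 CPM in wild type mock, with an interaction of 2.44 (adjusted p = 9.32e-06, edgeR quasi-likelihood, Benjamini-Hochberg).

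None of the 26 Aux/IAA genes, the family of repressors to which IAA3 belongs, was called higher with BL in iaa3 and 5 were called lower, with a median of −0.06, where 9 were called higher in wild type. IAA26 had 38.1 and 42.5 CPM in iaa3 BL, against 114 and 113 CPM in iaa3 mock, a log2 fold change of −1.49 (SE 0.08). IAA7 and IAA20 changed by −0.90 (SE 0.06) and −0.66 (SE 0.09) in iaa3, and by −0.02 and −0.18 in wild type, where neither was called. IAA19, an auxin-induced member, had 4.08 and 2.74 CPM in iaa3 BL, against 3.40 and 2.68 CPM in iaa3 mock, while it had 106 and 98.7 CPM in wild type BL, against 10.9 and 11.6 CPM in wild type mock. Its groups overlapped in iaa3, and the interaction was −3.04 on the log2 scale (adjusted p = 1.07e-05, edgeR quasi-likelihood, Benjamini-Hochberg).

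The promoter window of IAA19 is shown because the response of this gene was lower in iaa3, and its window carries elements of both hormones. It lies at chr3:5263751-5264000 (plus strand) in TAIR10.1, with matches in capitals as before.
IAA19: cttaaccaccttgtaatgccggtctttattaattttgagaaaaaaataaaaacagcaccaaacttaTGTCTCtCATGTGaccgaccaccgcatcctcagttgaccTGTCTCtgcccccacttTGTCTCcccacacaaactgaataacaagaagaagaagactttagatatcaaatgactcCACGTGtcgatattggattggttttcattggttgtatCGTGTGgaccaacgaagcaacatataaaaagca
It holds 3 auxin response elements, and 1 each of the BR response element, the G-box and the HUD element.

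Of 68 tested SAUR genes, small auxin-up RNAs of which several promote growth, 7 were called higher and 8 lower in iaa3, with a median of 0.14 that changed sign between settings. In wild type 38 were called higher and 9 lower, and 17 responded less in iaa3 by the interaction against 1 that responded more. The filter on reads took all 8 libraries together. Members close to absent in iaa3, such as SAUR26 and SAUR15, were therefore tested but could hardly be called there. How many of the 68 lacked reads in iaa3 was not counted, so the counts of calls do not compare the responses alone. SAUR36 had 10.4 and 11.2 CPM in iaa3 BL, against 59.2 and 57.5 CPM in iaa3 mock, and its log2 fold change of −2.43 (SE 0.10) marked a fall without overlap between groups. SAUR46 had 6 and 2 reads in iaa3 BL, against 59 and 65 in iaa3 mock, too few with BL for a fold change. SAUR77 changed by −1.73 (SE 0.20). SAUR9 had 4.94 and 4.68 CPM in iaa3 BL, against 1.07 and 1.32 CPM in iaa3 mock, a rise of 2.003 beside 3.95 in wild type. SAUR4 and SAUR5, neighbours in a tandem cluster, changed by 2.14 (SE 0.33) and 1.09 (SE 0.22), and reads of such near-identical genes may be split between them. SAUR26 and SAUR15 had too few reads in iaa3 for a fold change. SAUR26 had 0 and 0 reads in iaa3 BL, against 0 and 0 in iaa3 mock, beside 320 and 305 in wild type BL, against 24 and 28 in wild type mock. SAUR15 had 1 and 1 reads in iaa3 BL, against 2 and 1 in iaa3 mock, beside 218 and 231 in wild type BL, against 12 and 5 in wild type mock.

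HAT1, a homeodomain-leucine zipper repressor that works with BES1, fell in iaa3 and was not called in wild type. It had 3.56 and 3.84 CPM in iaa3 BL, against 24.0 and 22.3 CPM in iaa3 mock, and 30.8 and 29.6 CPM in wild type BL, against 28.5 and 28.0 CPM in wild type mock. Its log2 fold change was −2.64 (SE 0.10) in iaa3 and 0.09 in wild type, and the interaction came to −2.74 (adjusted p = 7.62e-07, edgeR quasi-likelihood, Benjamini-Hochberg). In the list of further auxin genes, 9 of 32 were called lower and 2 higher, the median being −0.23. The auxin influx carrier LAX3 had 37.7 and 39.7 CPM in iaa3 BL, against 97.1 and 95.7 CPM in iaa3 mock, a change of −1.32 (SE 0.06), and the efflux carrier PIN3 changed by −0.88 (SE 0.07). The 2 higher members make auxin. YUC3, a flavin monooxygenase, had 6.94 and 4.14 CPM in iaa3 BL, against 0.805 and 1.09 CPM in iaa3 mock, and TAA1, the aminotransferase one step earlier, changed by 0.83 (SE 0.10). Among 9 GH3 genes, which conjugate auxin and other hormones to amino acids, 0 were higher and 2 lower, GH3.5 at −0.90 (SE 0.08) and GH3.3 at −0.92 (SE 0.19), and 1 was higher without iaa3 BL replicate 1. Over the auxin genes named here as lower, the adjusted p was at most 0.00731, and over those named as higher at most 0.00665 (edgeR quasi-likelihood, Benjamini-Hochberg).

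Some of the 14 genes that fell with BL in iaa3 and rose with it in wild type are described here, and the others are not. As a share of the 706 lower genes, 14 lies below the 8.45% of all tested genes called higher in wild type. LBD15, a LOB-domain factor, had 2.01 and 1.59 CPM in iaa3 BL, against 4.25 and 3.81 CPM in iaa3 mock, and 18.7 and 14.6 CPM in wild type BL, against 2.18 and 1.59 CPM in wild type mock. HAT2, a relative of HAT1, had 13.9 and 12.2 CPM in iaa3 BL, against 25.9 and 23.2 CPM in iaa3 mock, and 77.9 and 67.1 CPM in wild type BL, against 46.9 and 39.8 CPM in wild type mock. BSK5, a kinase of the BR signalling kinase family, had 5.40 and 5.58 CPM in iaa3 BL, against 9.92 and 9.53 CPM in iaa3 mock, and 83.9 and 82.2 CPM in wild type BL, against 32.8 and 31.4 CPM in wild type mock. GH3.3 had 10.9 and 11.2 CPM in iaa3 BL, against 21.7 and 20.11 CPM in iaa3 mock, and 62.9 and 47.1 CPM in wild type BL, against 24.5 and 16.6 CPM in wild type mock. For LBD15, HAT2, BSK5 and GH3.3 the interaction was −4.32, −1.66, −2.20 and −2.35 on the log2 scale, with an adjusted p of at most 0.000124 (edgeR quasi-likelihood, Benjamini-Hochberg). LBD15, HAT2 and BSK5 were picked from the 14 after their values were seen. XTH17, a xyloglucan endotransglucosylase, was also among the 14, at 22.96 and 25.8 CPM in iaa3 BL, against 34.0 and 40.4 CPM in iaa3 mock, but its fall of −0.61 was no longer called without iaa3 mock replicate 2 (−0.48) or without iaa3 BL replicate 1 (−0.53).

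The helix-loop-helix (HLH) genes around BZR1 and PIF4, in which small PRE proteins set growth-promoting factors free from inhibitors such as IBH1, moved both ways. In iaa3 3 of 24 were called higher and 5 lower, with a median of −0.05, against 10 higher and 3 lower in wild type. IBH1 had 13.0 and 13.3 CPM in iaa3 BL, against 39.2 and 39.4 CPM in iaa3 mock, a log2 fold change of −1.58 (SE 0.07). AIF3 and AIF4, relatives of IBH1, changed by −0.90 (SE 0.07) and −0.70 (SE 0.08). On the other side, BEE1, a BR-induced factor, had 34.4 and 38.7 CPM in iaa3 BL, against 20.3 and 20.3 CPM in iaa3 mock, a change of 0.85 (SE 0.10), while the inhibitors AIF1 and PAR2 changed by 0.97 (SE 0.18) and 1.15 (SE 0.23). Among these 6 the adjusted p was at most 0.00540 (edgeR quasi-likelihood, Benjamini-Hochberg). PRE6 had 1.38 and 2.14 CPM in iaa3 BL, against 1.43 and 1.27 CPM in iaa3 mock, with overlapping groups, beside 42.3 and 41.6 CPM in wild type BL, against 11.1 and 9.57 CPM in wild type mock. PRE1 and PRE5 were close to absent in iaa3. PRE1 had 0 and 2 reads in iaa3 BL, against 1 and 0 in iaa3 mock, and PRE5 had 0 and 0 reads in iaa3 BL, against 0 and 1 in iaa3 mock, beside 224 and 244 in wild type BL, against 70 and 67 in wild type mock. PIF4 was not called, at 40.0 and 39.5 CPM in iaa3 BL, against 37.4 and 32.1 CPM in iaa3 mock. ARF8 was not called either, at 33.1 and 31.9 CPM in iaa3 BL, against 48.8 and 44.6 CPM in iaa3 mock, and ARF6 had 134 and 156 CPM in iaa3 BL, against 222 and 220.5 CPM in iaa3 mock, a fall of −0.61 that was not called without iaa3 BL replicate 1 (−0.50).

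Aquaporins, the water channels of the plasma and vacuolar membranes, had 6 of 20 called higher and 0 lower, with a median of 0.37, and all 6 were among the 15 called higher in wild type. PIP2;1 had 777 and 723 CPM in iaa3 BL, against 373 and 346 CPM in iaa3 mock, and 2754 and 2678 CPM in wild type BL, against 641 and 592 CPM in wild type mock. Its log2 fold change of 1.06 (SE 0.08) in iaa3 was smaller than that of 2.14 in wild type, by an interaction of −1.08 (adjusted p = 6.93e-05, edgeR quasi-likelihood, Benjamini-Hochberg). PIP2;3 and the tonoplast channel TIP1;1 changed by 1.37 (SE 0.10) and 0.69 (SE 0.07). Over the list, 14 of 20 genes responded less in iaa3 than in wild type by the interaction and 0 responded more.

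Expansins, which loosen walls, had 7 of 26 called higher and 0 lower, with a median of 0.33, but 2 were called higher without iaa3 mock replicate 1, 4 without iaa3 mock replicate 2 and 4 by DESeq2. EXPA10 had 16.4 and 16.5 CPM in iaa3 BL, against 3.80 and 2.22 CPM in iaa3 mock, a log2 fold change of 2.45 (SE 0.18) beside 1.75 in wild type. EXPA8 had 28 and 21 reads in iaa3 BL, against 2 and 6 in iaa3 mock, beside 1595 and 1296 in wild type BL, against 165 and 114 in wild type mock, and its call in iaa3 was lost without iaa3 mock replicate 1 or without iaa3 BL replicate 1.
The window before EXPA10, a gene that rose in both genotypes, is shown because it has the HUD element and the auxin response element close together, at chr1:9259182-9259431 (plus strand) in TAIR10.1.
EXPA10: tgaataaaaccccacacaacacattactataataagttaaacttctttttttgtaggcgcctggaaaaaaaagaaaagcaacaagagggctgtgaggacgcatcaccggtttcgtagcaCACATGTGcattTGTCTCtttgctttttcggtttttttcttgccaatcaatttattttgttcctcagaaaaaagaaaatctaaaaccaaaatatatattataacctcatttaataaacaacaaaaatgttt
Its HUD matches form 1 palindromic run of 8 letters, read once on each strand, 4 bases before the auxin response element.

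XTH genes, which cut and rejoin xyloglucan, had 3 of 29 higher and 5 lower, with a median of −0.19, and the higher ones became 6 without iaa3 mock replicate 2 and 5 without iaa3 BL replicate 1. XTH23 had 446 and 514 CPM in iaa3 BL, against 284 and 273 CPM in iaa3 mock, and XTH19 changed by 1.02 (SE 0.14). XTH15 had 2972 and 2768 CPM in iaa3 BL, against 7217 and 6850.3 CPM in iaa3 mock, a change of −1.29 (SE 0.08), and XTH32 changed by −1.12 (SE 0.11). CESA5, a subunit of the primary wall cellulose synthase, had 93.5 and 112 CPM in iaa3 BL, against 46.0 and 42.4 CPM in iaa3 mock, a change of 1.22 (SE 0.09) beside 0.93 in wild type. Arabinogalactan proteins and EXORDIUM-like genes had 8 of 48 higher and 2 lower, against 25 and 5 in wild type, with a median of 0.11 and 1 lower without iaa3 mock replicate 2 or iaa3 BL replicate 1. EXL1 had 221 and 223 CPM in iaa3 BL, against 128 and 113 CPM in iaa3 mock, and AGP1 changed by 1.15 (SE 0.10), whereas EXL2 changed by −1.11 (SE 0.08). AGP22 had 7.63 and 5.63 CPM in iaa3 BL, against 2.15 and 1.95 CPM in iaa3 mock, beside 496 and 492 CPM in wild type BL, against 4.04 and 2.55 CPM in wild type mock. This response was present in iaa3 at 1.68 (SE 0.22) but smaller than in wild type by an interaction of −5.56. Tubulins had 2 of 15 higher and 0 lower, TUA1 among them at 1.13 (SE 0.19), with 1 higher without iaa3 mock replicate 1. The adjusted p was at most 0.000684 over the wall genes from EXPA10 to AGP22 that kept their call, and 0.00231 over TUA1 and the 3 aquaporins (edgeR quasi-likelihood, Benjamini-Hochberg). Cuticle genes had 4 of 29 higher and 2 lower, but 2 to 8 higher when single libraries were left out, without iaa3 mock replicate 1 or iaa3 BL replicate 2 for the 2 and without iaa3 BL replicate 1 for the 8, and 0 lower without iaa3 mock replicate 2.

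**Figure D3:**
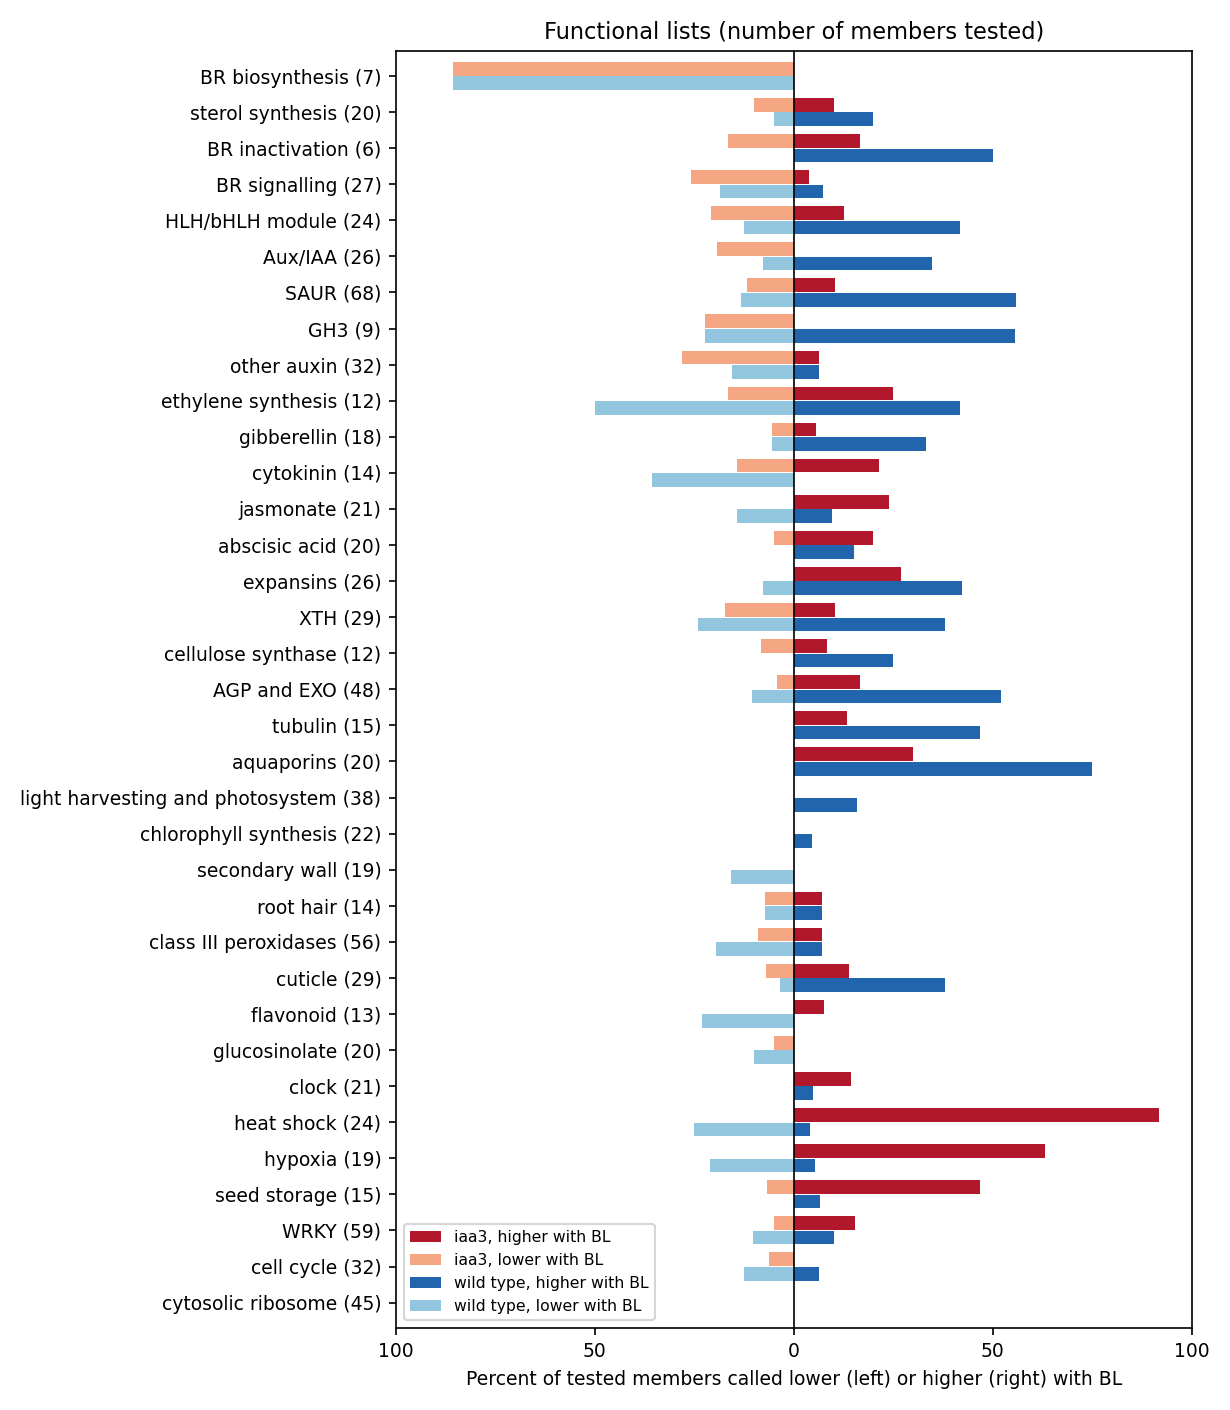
Percent of the tested members of 35 lists (number of members in brackets) called higher (right) or lower (left) with BL in iaa3 (upper bar) and in wild type (lower bar). In iaa3 BR biosynthesis extends to the left as in wild type, heat shock, hypoxia and seed storage extend to the right, and the bars of SAUR, AGP and EXO and aquaporins are shorter than in wild type. Tested members can include genes with few or no reads in iaa3, as in SAUR, which could hardly be called there.

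In the lists of other hormones, 5 of 12 genes of ethylene synthesis were called, 3 higher and 2 lower, beside 4.69% higher and 3.46% lower over all genes. The ACC synthase ACS6 was among the higher ones, with a log2 fold change of 0.94 (SE 0.15). ACS11, whose window is printed above, had 1 and 3 reads in iaa3 BL, against 104 and 125 in iaa3 mock, too few with BL for a fold change. ACS5 had 11 and 4 reads in iaa3 BL, against 0 and 2 in iaa3 mock, beside 1135 and 987 in wild type BL, against 6 and 8 in wild type mock, and its call was lost without iaa3 mock replicate 1 or iaa3 BL replicate 1. Cytokinin genes had 3 of 14 higher and 2 lower. The response regulator ARR3 had 2 and 4 reads in iaa3 BL, against 73 and 81 in iaa3 mock, too few with BL for a fold change, beside 3 and 4 in wild type BL, against 90 and 99 in wild type mock. CKX5, which breaks cytokinin down, had 7.98 and 9.77 CPM in iaa3 BL, against 24.0 and 23.4 CPM in iaa3 mock. Its change of −1.41 (SE 0.11) lay beside −1.42 in wild type, and the interaction was not called. ARR7 was higher at 1.04 (SE 0.21), and the higher members numbered 1 without iaa3 mock replicate 2.

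Jasmonate genes had 5 of 21 higher and 0 lower, with 3 higher without iaa3 BL replicate 2 and 1 lower without iaa3 mock replicate 1. The repressor JAZ2 changed by 0.92 (SE 0.10) and the lipoxygenase LOX4 by 1.72 (SE 0.22). Of 20 abscisic acid genes 4 were higher and 1 lower. The cold- and drought-induced RD29A had 80.5 and 105 CPM in iaa3 BL, against 37.6 and 29.5 CPM in iaa3 mock, the similar KIN1 changed by 2.58 (SE 0.26), and the abscisic acid hydroxylase CYP707A3 by 1.14 (SE 0.12). Gibberellin genes had 1 of 18 higher and 1 lower, a share near that of all genes, with 2 higher without iaa3 mock replicate 2, and the gibberellin-responsive GASA1 had 1232 and 1265 CPM in iaa3 BL, against 2606 and 2395 CPM in iaa3 mock, a change of −1.002 (SE 0.07). The adjusted p over ACS6, CKX5, ARR7, JAZ2, LOX4, RD29A, KIN1, CYP707A3 and GASA1 was at most 0.00597 (edgeR quasi-likelihood, Benjamini-Hochberg).

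WRKY factors, many of them tied to defence, had 9 of 59 higher and 3 lower, with 14 higher without iaa3 BL replicate 1 and 5 lower without iaa3 mock replicate 1. WRKY18 had 114 and 169 CPM in iaa3 BL, against 56.0 and 59.1 CPM in iaa3 mock, WRKY46 changed by 1.91 (SE 0.24) and WRKY53 by 1.18 (SE 0.12), while WRKY45 changed by −1.26 (SE 0.09). Clock genes had 3 of 21 higher and 0 lower. RVE1, which links the clock to auxin, had 41.1 and 41.4 CPM in iaa3 BL, against 15.4 and 14.6 CPM in iaa3 mock, a log2 fold change of 1.46 (SE 0.08) beside 1.000 in wild type. CCA1 and PRR9, genes of the morning, changed by 0.97 (SE 0.13) and 1.01 (SE 0.21), and by −0.29 and 0.03 in wild type. Cell cycle genes had 0 of 32 higher and 2 lower, the inhibitor KRP2 at −1.5041 (SE 0.10) and the D-type cyclin CYCD3;3 at −0.72 (SE 0.10), with 1 higher without iaa3 mock replicate 2. The adjusted p over these 9 genes was at most 0.00803 (edgeR quasi-likelihood, Benjamini-Hochberg). AT3G55840, annotated as a nematode resistance-like protein, had 13.4 and 17.3 CPM in iaa3 BL, against 6.53 and 8.03 CPM in iaa3 mock, beside 44.2 and 42.3 CPM in wild type BL, against 3.04 and 2.99 CPM in wild type mock.

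Photosynthesis genes gave no calls in iaa3. Of 38 light harvesting and photosystem genes and 22 chlorophyll synthesis genes, 0 were called in either direction, with medians of −0.10 and 0.02, and the photosystem members spanned −0.43 to 0.27. In wild type 6 of the 38 were called higher, and 17 responded less in iaa3 by the interaction. The 45 cytosolic ribosome genes had 0 calls and a median of 0.06. Secondary wall genes also had 0 of 19 called, with a median of −0.40, but 1 was lower without iaa3 mock replicate 1, iaa3 mock replicate 2 or iaa3 BL replicate 1. For chlorophyll synthesis 1 gene was higher without iaa3 BL replicate 1. An unadjusted p under 0.05 by edgeR was reached by 6 of the photosystem, 7 of the chlorophyll, 5 of the ribosome and 8 of the secondary wall genes, and DESeq2 called 1 secondary wall gene and none of the others. Flavonoid genes had 1 of 13 called, and 0 without any 1 of the 4 iaa3 libraries or by DESeq2. Glucosinolate genes had 1 of 20 called, and 0 by DESeq2 or without iaa3 mock replicate 1, iaa3 mock replicate 2 or iaa3 BL replicate 1. Root hair genes had 1 of 14 higher and 1 lower, with 0 calls without iaa3 mock replicate 1, 0 higher without iaa3 BL replicate 2, 2 higher without iaa3 mock replicate 2 and 3 higher without iaa3 BL replicate 1. Class III peroxidases had 4 of 56 higher and 5 lower.

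Chaperone genes were far higher in the iaa3 BL than in the iaa3 mock libraries. The labels do not say whether libraries were handled separately, so BL and any separate handling of the iaa3 BL libraries cannot be told apart. Of 24 heat shock genes 22 were called higher and 0 lower in iaa3, with a median of 3.16, against 1 higher and 6 lower in wild type. The interaction was called for 21. AT1G53540, a small HSP20-like chaperone, had 54.8 and 56.9 CPM in iaa3 BL, against 1.61 and 0.772 CPM in iaa3 mock, and 2.37 and 0.938 CPM in wild type BL, against 2.22 and 1.44 CPM in wild type mock. Its change of 5.54 (SE 0.27) became 6.17 without iaa3 mock replicate 1. HSP17.6A, HSP17.6II and HSP17.4, of the same class, changed by 5.22 (SE 0.29), 5.42 (SE 0.20) and 4.59 (SE 0.22), and AT1G54050, AT1G07400 and AT2G29500, also HSP20-like, by 5.09 (SE 0.19), 4.39 (SE 0.20) and 3.74 (SE 0.14). HSP70B, a larger chaperone, changed by 4.06 (SE 0.24), BAG6, a chaperone partner, by 3.22 (SE 0.10), and AT5G48570, a peptidyl-prolyl isomerase, by 3.18 (SE 0.15). The adjusted p over these 10 was at most 1.71e-06 (edgeR quasi-likelihood, Benjamini-Hochberg), and reads of near-identical small heat shock genes may be split between them.

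The window before HSP17.4 is shown because it carries the element that heat stress factors bind, at chr3:16984868-16985117 (minus strand) in TAIR10.1.
HSP17.4: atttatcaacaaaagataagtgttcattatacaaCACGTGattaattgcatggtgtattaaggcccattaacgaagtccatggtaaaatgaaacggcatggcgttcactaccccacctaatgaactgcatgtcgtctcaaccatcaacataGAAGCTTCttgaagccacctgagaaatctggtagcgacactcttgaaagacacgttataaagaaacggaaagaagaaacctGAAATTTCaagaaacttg
It holds 2 heat shock elements and 1 G-box. The heat shock element was in 8 of 24 windows of the heat shock list (33.3%), in 12.9% of windows of genes higher in iaa3 and in 9.39% of all windows.

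Hypoxia genes had 12 of 19 higher and 0 lower, with a median of 1.56, against 1 higher and 4 lower in wild type. The interaction was called for 17. The higher ones numbered 9 by DESeq2 and 15 with the replicate number as a block, and were fewest without iaa3 mock replicate 2. Their list median was 1.36 without iaa3 mock replicate 2 and 1.75 without iaa3 mock replicate 1. PDC1, a pyruvate decarboxylase of fermentation, had 517 and 548 CPM in iaa3 BL, against 126 and 56.6 CPM in iaa3 mock, and 10.5 and 9.69 CPM in wild type BL, against 91.7 and 14.6 CPM in wild type mock. Its mock libraries differed within each genotype, and its call in iaa3 was lost without iaa3 mock replicate 2 (2.08, against 2.54 with all libraries and 3.23 without iaa3 mock replicate 1). AT5G10040, of unknown function, had 54.1 and 64.4 CPM in iaa3 BL, against 9.70 and 0.772 CPM in iaa3 mock, so that leaving out iaa3 mock replicate 1 or 2 gave 6.25 or 2.61 in place of 3.49. PDC2, RBOHD, an NADPH oxidase, and SRO5 were steadier, at 1.4998 (SE 0.12), 1.62 (SE 0.14) and 2.34 (SE 0.18), with an adjusted p of at most 0.0129 over the 5 genes (edgeR quasi-likelihood, Benjamini-Hochberg).

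Summed over each list, heat shock genes had 1882 and 2167 CPM in iaa3 BL, 405 and 377 in iaa3 mock, 419 and 404 in wild type BL and 543 and 496 in wild type mock. Hypoxia genes had 7260.3 and 7755 CPM in iaa3 BL, 3285 and 2082 in iaa3 mock, 604 and 672 in wild type BL and 1762 and 583 in wild type mock. Seed storage genes had 45.3 and 277 CPM in iaa3 BL, 16.9 and 14.0 in iaa3 mock, 448 and 322 in wild type BL and 909 and 143 in wild type mock. Both iaa3 BL libraries were the highest in heat shock and hypoxia. The part of these stress genes in the other responses to BL was not tested.

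For seed storage genes 7 of 15 were called higher and 1 lower, with a median of 4.27, but single libraries decided this. The higher ones numbered 1 without iaa3 mock replicate 1, 0 without iaa3 mock replicate 2, 11 without iaa3 BL replicate 1 and 0 without iaa3 BL replicate 2. CRA1, a cruciferin storage protein, had 21.8 and 124 CPM in iaa3 BL, against 3.84 and 1.45 CPM in iaa3 mock, and 264 and 190.4 CPM in wild type BL, against 618 and 97.6 CPM in wild type mock. Its change of 4.78 was 5.54 without iaa3 BL replicate 1, 3.03 without iaa3 BL replicate 2, 5.65 without iaa3 mock replicate 1 and 4.25 without iaa3 mock replicate 2, and it was not called without either of the replicates numbered 2.

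**Figure D4:**
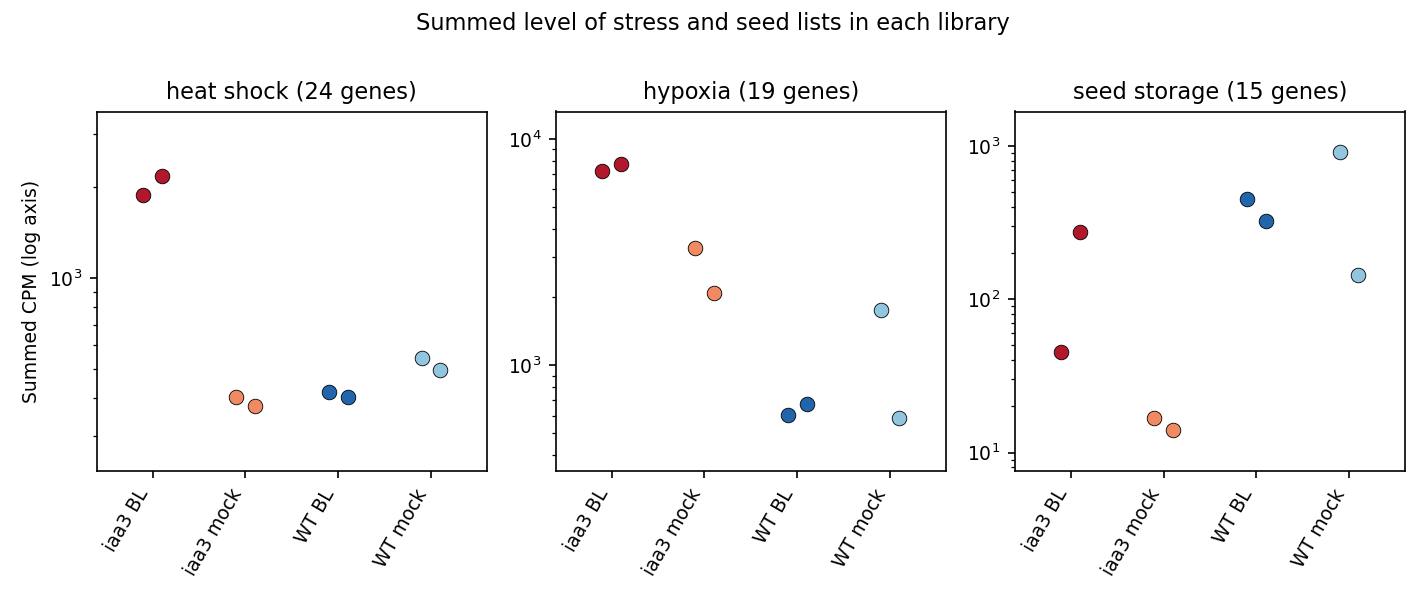
Summed CPM of the heat shock, hypoxia and seed storage lists in each library (points, log axis), for iaa3 BL, iaa3 mock, wild type (WT) BL and WT mock. Heat shock and hypoxia sums are highest in both iaa3 BL libraries, the mock libraries of each genotype differ in hypoxia genes, and seed storage sums spread widely within groups.

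Grouped by the process terms of the RefSeq annotation, 12455 tested genes carried a term, and 124 terms held at least 20 of them. Terms were split at commas, so some of the 124 are parts of a longer name. The term with the highest share of genes higher in iaa3 was the response to heat, with 23 of 57. It was followed by the responses to osmotic stress with 5 of 25, to abscisic acid with 14 of 75, to chitin with 10 of 55 and to water deprivation with 11 of 68. Of these genes, 4 of the 5 for osmotic stress, 7 of 11 for water deprivation, 1 of 14 for abscisic acid, 1 of 10 for chitin and 2 of 23 for heat were also higher in wild type. Of the terms with the highest share of lower genes, the response to other organisms had 4 of 26, the response to auxin 8 of 59, root development 4 of 31 and lipid transport 8 of 63. Over all tested genes, 4.69% were called higher and 3.46% lower in iaa3. The shares of the terms above are the extremes of 124 ranked after the values were seen, and they were not tested.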

How the data were processed

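Total RNA of etiolated seedlings was sequenced in 8 libraries, 2 each of iaa3 BL, iaa3 mock, wild type BL and wild type mock. The authors deposited whole-number read counts per locus, with no normalization. The submitters' processing notes name CASAVA 1, TopHat, HTSeq and the TAIR9 build, while strand and multiple mapping settings are not given in the sources used here.

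Counts were filtered with filterByExpr and scaled with TMM in edgeR 4.0.16 (R 4.3.3). The filter took all 8 libraries together, so a gene could be tested on its reads in wild type alone. A quasi-likelihood model with 1 term per group was fitted to all 8 libraries, and BL was contrasted with mock within each genotype and between genotypes. Calls needed 1.5-fold and an unadjusted p under 0.01, the thresholds of the study's methods. Interactions were called at a Benjamini-Hochberg adjusted p under 0.05. On simulated counts for 20170 loci, all 200 planted changes in iaa3 were recovered with 68 false calls, and 180 interactions were recovered. The planted changes were 2-fold or larger and none lay in weakly expressed genes. Recovery of changes between 1.5-fold and 2-fold was not tested. The floor of 3 counts covers counting error only, and intervals of interactions come from the model and carry the spread between libraries. Alternatives were RLE factors, library size alone, DESeq2 1.42.0, other filters, the iaa3 libraries alone, a replicate block, other thresholds and leaving out each library. The counts matched all 8 samples, 0 columns lacked a sample and 0 rows named no gene.

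The gene lists and named genes were chosen with earlier results of these data known. Names came from a rule that took the 10 largest rises and falls of well expressed genes (mean log2 CPM of at least 3) without overlap between groups, up to 3 called members per list and direction, all BR synthesis genes, the 5 largest interactions in each direction, and regulators picked by name. Of 150 genes so named, 139 were called, and the 29 of these whose call was lost when 1 iaa3 library was left out are counted in their lists and mostly not described singly. A result for 1 named gene is not reported here. LBD15, HAT2, BSK5, ERD10, FBS1, MYB55, WAT1 and BPS3 were added after their values were seen. Promoters are the 250 bases before the annotated start in the RefSeq TAIR10.1 genome, joined by locus identifier for 20280 tested loci, whose assembly differs in name from that of the counts.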

Additional observations from a re-analysis of the deposited data

Results flagged for a closer look

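The response to BL in iaa3 minus that in wild type was called by the interaction test for 78 of the 116 genes in the text. It was at least 2-fold for 44 with enough reads. Over all tested genes the response was called higher in iaa3 for 7.63% and lower for 9.95%. Some genes in the text were picked by the size of their interaction or after their values were seen, so 78 of 116 describes that choice. All differences below are on the log2 scale (edgeR quasi-likelihood, adjusted p under 0.05).

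Responses were higher in iaa3 for stress genes. The heat shock genes differed by 5.67 (AT1G53540), 4.89 (HSP17.6A), 6.04 (AT1G54050), 4.61 (HSP17.4), 5.69 (AT1G07400), 3.75 (HSP70B), 5.07 (AT2G29500), 3.15 (BAG6), 5.62 (HSP17.6II) and 4.06 (AT5G48570). The hypoxia genes differed by 6.38 (AT5G10040), 4.93 (PDC1), 1.97 (PDC2), 2.14 (RBOHD) and 2.27 (SRO5), and the seed storage gene CRA1 by 5.44. Part of the first 2 differences is a change of −2.88 (AT5G10040) and −2.39 (PDC1) in wild type, where hypoxia genes summed to 1762 CPM in mock replicate 1 and 583 CPM in mock replicate 2. Without single iaa3 libraries the change in iaa3 spanned 2.61 to 6.25 for AT5G10040, 2.08 to 3.23 for PDC1 and 3.03 to 5.65 for CRA1. The abscisic acid genes KIN1 and CYP707A3 differed by 3.08 and 1.49, the cytokinin regulator ARR7 by 1.75, the clock gene CCA1 by 1.26, the sterol enzyme CYP51G1 by 1.02 and BPS3 by 2.44.

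Genes that fell in both genotypes, but less far in iaa3, were AT5G01740 at 3.80, AT5G22580 at 1.94, AT3G51400 at 1.22, AT5G66080 at 1.17, the BR synthesis gene CYP90D1 at 1.57, and the wall genes XTH32 and XTH15 at 1.55 and 1.27. The size for AT5G01740 is uncertain, since its level in wild type BL lay close to the floor.

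Responses were lower in iaa3 for auxin-linked and growth genes. The differences were −1.49 for IAA3, −3.04 for IAA19, −2.35 for GH3.3, −1.94 for SAUR9, −1.84 for SAUR5, −1.63 for PRE6, −2.74 for HAT1, −1.66 for HAT2, −4.32 for LBD15 and −2.20 for BSK5. Wall and water channel genes differed by −5.56 (AGP22), −3.57 (XTH17), −1.08 (PIP2;1) and −1.68 (PIP2;3), and AT3G55840 by −2.76.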

How the results depend on the processing

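Over 146 results, 1522 values under other settings stayed on their side of the threshold, 58 called values lost their call and 6 uncalled values changed sign. The changes of sign were IAA3 at 0.13 without iaa3 mock replicate 1 and 0.06 without iaa3 BL replicate 1, BZR1 at 0.044 and 0.020 under the same settings, and IAA19 at −0.011 without iaa3 mock replicate 2 and −0.15 without iaa3 BL replicate 1. Over single libraries left out, IAA3 spanned −0.17 to 0.13, BZR1 −0.10 to 0.044 and IAA19 −0.15 to 0.42. Leaving out single iaa3 libraries gave 716 to 1124 genes higher and 561 to 716 lower in iaa3, and the lower genes numbered 760 without wild type mock replicate 2. Leaving out any single library gave 760 to 1775 higher and 1268 to 2362 lower responses in iaa3 by the interaction, and 29.1% to 37.8% of higher and 43.7% to 53.5% of lower genes also called in wild type. A 2-fold threshold gave 476 higher and 299 lower genes in iaa3, and 928 higher and 513 lower in wild type. Library size alone gave 54.4% of lower genes also lower in wild type and moved the median of all genes to −0.03 in iaa3 and −0.11 in wild type. With it 51.7% of iaa3 calls were higher, against 57.6% with TMM.

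Requiring 10 counts in every library gave list medians of −2.50 for BR biosynthesis, 2.91 for heat shock, 0.21 for expansins, −0.24 for SAUR and 1.61 for seed storage. The SAUR median was 0.16 with DESeq2, −0.023 with the iaa3 libraries alone, 0.10 with library size alone and 0.11 with no filter, and it spanned 0 to 0.11 without single libraries. The Aux/IAA median was −0.10 with library size alone and −0.12 without iaa3 BL replicate 2, spanning −0.12 to −0.042 without single libraries, and the seed storage median spanned 1.16 without iaa3 BL replicate 2 to 4.78 without iaa3 BL replicate 1. The causes were not tested.

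The replicate numbers did not establish a pairing of samples, since the deviations of same-numbered libraries correlated at 0.117 for iaa3 BL with iaa3 mock, 0.465 for iaa3 mock with wild type mock and −0.065 to −0.012 for the other pairs of groups. With the replicate number as a block, 988 genes were higher and 704 lower in iaa3, and 1738 and 2151 interactions were called. With 18107519 to 23183988 counts per library and 2 libraries per group, genes below 1 CPM carry the widest errors.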
